A study of Mus musculus with 20 samples.

Results

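The genes described here are 57 factors that assemble the large (60S) subunit of the cytoplasmic ribosome, chosen by symbol from the 34937 genes counted in each of 19 single mouse embryos at the 8-cell stage (E2.5). The list was drawn up with the difference between maternally depleted and control embryos already in view, so the fold changes and calls given for the members in that contrast describe them and are not a test of them. Ehmt2 encodes G9a, the enzyme that, with its partner GLP, dimethylates lysine 9 of histone H3. Ehmt2Mat embryos came from Ehmt2F/- mothers carrying Zp3-Cre, and Ehmt2Cntr embryos from Ehmt2F/+ mothers carrying Zp3-Cre, so that both sets of mothers had a conditional (floxed) allele and the same transgene. Zp3-Cre is driven by an oocyte promoter and recombines the floxed allele in the growing oocyte, which removes the maternal supply. According to the study the fathers were Ehmt2+/-, and all embryos were of mixed background, untreated, freed of the zona pellucida and normal in shape. Among the 10 Ehmt2Mat embryos 5 were zygotic +/- (Ehmt2M/+, able to express the paternal copy) and 5 were zygotic -/- (Ehmt2M/Z). Among the 9 Ehmt2Cntr embryos with counts 6 were zygotic +/+ and 3 were +/-. Control embryo 4 is not analysed here.

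Ribosome assembly begins in the nucleolus, where RNA polymerase I transcribes a long precursor that holds the small-subunit rRNA and most of the large-subunit rRNA. The 60S factors bind the precursor in succession: nucleolar scaffold proteins, rRNA methyltransferases and RNA helicases first, then GTPases and AAA ATPases that remodel the particle and remove the internal spacer ITS2, and last the proteins that escort the particle through the nuclear pore and free it of its remaining factors in the cytoplasm. The mouse embryo starts to build working nucleoli from the precursor bodies inherited with the oocyte during the first cleavages. At the 8-cell stage a transcript can come from the embryo's own genome or from what is left of the oocyte's store. The counts do not tell these sources apart.

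The library totals ran from 8231646 to 30602434 counts, and the smallest count of any member in any embryo was 84. Levels below are in CPM, a gene's counts as a share of the library total after scaling by TMM, and log2 fold changes (with SE) are from the edgeR fit over all genes. Ehmt2 itself stood between 66.6 and 253 CPM in Ehmt2Cntr and between 58.7 and 159 CPM in Ehmt2Mat, a log2 fold change of -0.47 ± 0.24 that was not called (edgeR adjusted p = 0.233). The counts cover the whole gene and do not separate the recombined part, so this level does not check the labels. Mitochondrial genes took 6.47 to 20.4% of the counts in controls and 8.03 to 21.7% in Ehmt2Mat. A control embryo had between 12068 and 16142 detected genes, with a median of 12848. An Ehmt2Mat embryo had between 12754 and 16412, with a higher median of 14487.5 and an overlapping range. Of 8 transcripts used as markers of the 8-cell embryo 7 passed the filter on low counts, with Cdx2 left out, 2 were called higher in Ehmt2Mat (Tfap2c and Tead4) and 2 lower (Sall4 and Klf5). Of 10 cumulus and granulosa markers 5, among them Foxl2, Amh and Fshr, were at 0 in every embryo and 1 (Amhr2) passed the filter, with a summed level of 22.4 to 109.5 CPM in controls and 42.1 to 166 CPM in Ehmt2Mat. The sum of 5 sperm transcripts never passed 1.23 CPM and that of 7 transcripts of the 2-cell stage never passed 21.5 CPM. Of 9 oocyte transcripts 8 passed the filter and 1, Oosp1, was called higher (log2 fold change 2.70 ± 0.54, edgeR adjusted p = 0.00277), with summed levels of 56.1 to 354 CPM in controls and 125 to 398 CPM in Ehmt2Mat. The part of these transcripts, and of the number of genes detected, in the results below was not tested. The labels do not say which embryos shared a mother, so the p-values below measure the spread between single embryos.

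The promoters of the members are shown first. RefSeq windows of 250 bases before to 50 bases after the annotated start (GRCm38.p6) were found for 49 of the 57 members, with no entry for Bop1, Eif6, Gnl2, Gnl3l, Mak16, Npm1, Rpf1 and Rrs1. Both strands were searched for 3 short motifs, the E-box CACGTG, the ETS motif CCGGAAG and the NRF1 motif GCGCATG, and a base could belong to more than 1 match. Below, 4 of the windows are given 5′ to 3′ in the direction of the gene, with the matches in capitals (a match on the other strand reads as its reverse complement). Nop2 is the member with the largest fold change and Ddx27 one of those whose groups did not overlap. Ebna1bp2 and Brix1 each hold 2 ETS matches, at different distances from the start, and differ in fold change. Ddx27, Ebna1bp2 and Brix1 were picked after their values were seen.
Nop2 (chr6:125131633-125131932, plus strand): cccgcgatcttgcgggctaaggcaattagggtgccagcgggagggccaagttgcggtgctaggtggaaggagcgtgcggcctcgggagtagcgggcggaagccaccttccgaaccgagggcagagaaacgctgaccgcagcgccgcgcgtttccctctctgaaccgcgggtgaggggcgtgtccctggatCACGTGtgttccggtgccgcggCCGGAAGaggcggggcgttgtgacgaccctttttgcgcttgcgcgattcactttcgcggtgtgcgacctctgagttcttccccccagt
Ddx27 (chr2:167015063-167015362, plus strand): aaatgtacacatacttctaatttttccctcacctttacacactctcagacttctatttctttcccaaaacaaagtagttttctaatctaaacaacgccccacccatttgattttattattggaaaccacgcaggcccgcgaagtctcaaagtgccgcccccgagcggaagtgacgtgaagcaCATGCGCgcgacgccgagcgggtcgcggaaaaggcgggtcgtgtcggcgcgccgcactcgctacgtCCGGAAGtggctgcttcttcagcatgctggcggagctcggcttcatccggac
Ebna1bp2 (chr4:118620549-118620848, plus strand): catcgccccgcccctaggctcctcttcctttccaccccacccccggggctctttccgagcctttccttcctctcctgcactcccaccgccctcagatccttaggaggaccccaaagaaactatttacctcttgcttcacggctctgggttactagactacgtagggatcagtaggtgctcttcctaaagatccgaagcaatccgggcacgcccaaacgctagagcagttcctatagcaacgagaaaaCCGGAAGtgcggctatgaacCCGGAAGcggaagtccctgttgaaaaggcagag
Brix1 (chr15:10485888-10486187, minus strand): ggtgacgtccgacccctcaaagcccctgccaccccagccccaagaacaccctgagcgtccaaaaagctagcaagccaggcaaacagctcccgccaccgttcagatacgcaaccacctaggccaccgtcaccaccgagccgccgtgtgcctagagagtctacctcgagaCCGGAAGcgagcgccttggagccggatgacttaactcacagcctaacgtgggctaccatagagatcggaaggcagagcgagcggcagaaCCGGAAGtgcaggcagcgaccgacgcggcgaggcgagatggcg

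The Nop2 window holds an E-box 60 bases and an ETS motif 38 bases before the start. In Ddx27 the ETS match lies 2 bases before the start and the NRF1 motif, on the other strand, 68 bases before it. Ebna1bp2 has ETS matches 3 bases before and 17 bases after the start, and Brix1 has them 82 bases before and 7 bases after. Over the whole set the ETS motif was found in 22 of 49 members (44.9%), against 21.8% of the 8816 tested genes with a promoter entry and 9.93% of all 27025 genes with one. The E-box was found in 10 members (20.4%, against 12.1% of tested genes and 8.09% of all), and the NRF1 motif in 5 (10.2%, against 8.64% and 4.41%). Among members called higher in Ehmt2Mat 10 of 19 had the ETS motif (52.6%) and among those not called 12 of 30, with the E-box in 3 (15.8%) and 7 (23.3%). The windows of members held a median of 59.5% G and C and 22 CpG dinucleotides, near the 60.7% and 21 of tested genes, whereas all genes had medians of 52.7% and 7. A match describes the letters of the window and does not show that a factor binds there. Whether the matches bear on the fold changes was not tested.

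Most of the 60S factors had a higher estimated level in Ehmt2Mat than in Ehmt2Cntr embryos. Of the 57 members, all of which passed the filter on low counts, 24 were called higher and 0 lower at an edgeR adjusted p under 0.05, where 4.37% of the 11754 genes tested were called higher and 4.98% lower (9.35% in either direction). At an unadjusted p under 0.05 there were 33 higher and 1 lower (Pelp1), where 23.3% of all genes had such a p. DESeq2 called 29 members higher and 0 lower. Of the 11754 genes it tested DESeq2 called 1775, with 828 (7.04% of those tested) higher. The estimate was above 0 for 51 members, against 47.6% of all genes tested, and the median log2 fold change was 0.56, against -0.04 over all genes. Since the list was made with this contrast in view, these counts describe the members and are no evidence about them. The single values ran from -0.54 ± 0.23 (Pelp1) to 1.67 ± 0.23 (Nop2), as the plot of fold changes by role shows.

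**Figure D1:**
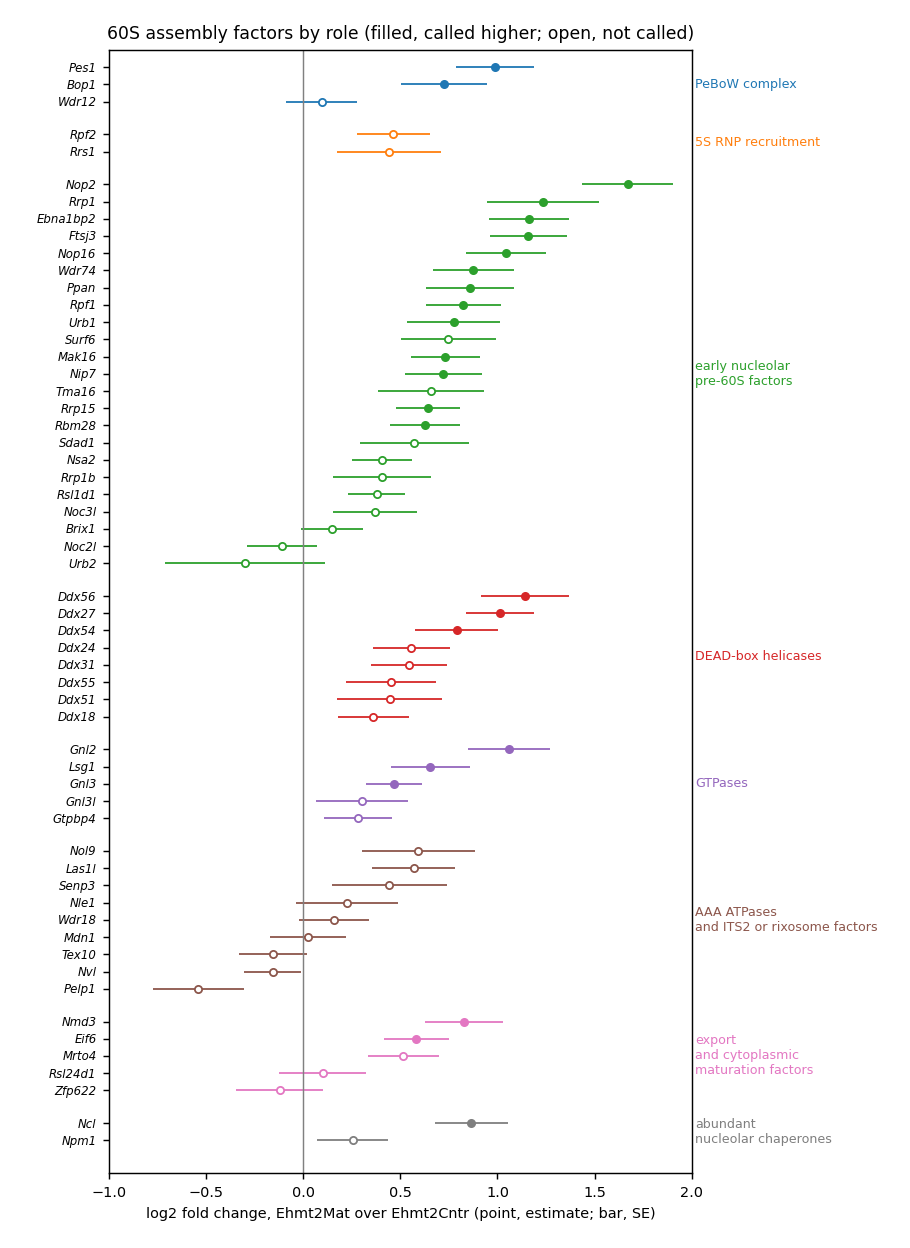
The log2 fold change of each of the 57 members, Ehmt2Mat over Ehmt2Cntr (x axis), with its SE as a bar, grouped by role and sorted within the group; filled points were called higher. Points called higher occur in 6 of the 8 groups, the group of AAA ATPases, ITS2 and rixosome factors straddles 0, and no point to the left of 0 was called.

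The Pes1, Bop1 and Wdr12 proteins form the PeBoW complex, which is needed to process the precursor of the 28S and 5.8S rRNAs. Of its 3 transcripts 2 were called higher. Pes1 (ENSMUSG00000020430, chr11:3963975-3980004, plus strand) had a lowest, median and highest level of 46.9, 90.4 and 133 CPM in Ehmt2Cntr and of 139, 163 and 276 CPM in Ehmt2Mat, so that every Ehmt2Mat embryo lay above every control. Its log2 fold change was 0.99 ± 0.20. Bop1 was the other one called (0.72 ± 0.22). Wdr12 (chr1:60069785-60098645, minus strand) is a WD-repeat protein of the same complex. Wdr12 stood at 117, 186 and 267 CPM in controls and at 134, 202 and 292 CPM in Ehmt2Mat. The groups overlapped over almost their whole range, with a log2 fold change of 0.09 ± 0.18. Of the 50-base windows of the Pes1 transcripts 23.3% also occur in transcripts of other genes, most of them in the entries Gm5910 and Gm5472, so part of its count could belong to those entries.

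Rpf2 and Rrs1 carry the 5S rRNA, together with its ribosomal proteins, into the forming 60S particle. Rpf2 (chr10:40223246-40247036, minus strand) had a lowest, median and highest level of 86.1, 136 and 237 CPM in controls and 158, 202 and 275 CPM in Ehmt2Mat. All 10 Ehmt2Mat embryos were above the control median, yet 3 controls reached into the Ehmt2Mat range, and the log2 fold change of 0.46 ± 0.19 was not called. Rrs1 (chr1:9545408-9547455, plus strand) stood at 36.3, 88.1 and 139 CPM and 51.8, 109 and 248 CPM, with a log2 fold change of 0.44 ± 0.27. Its highest value came from a single Ehmt2Mat embryo, number 9, and without that embryo the log2 fold change was 0.25.

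The early nucleolar factors, which build and fold the first pre-60S particles, formed the largest group, and 13 of its 23 members were called higher with a group median of 0.72. Nop2 (ENSMUSG00000038279, chr6:125131909-125144753, plus strand) methylates a cytosine of the 28S rRNA and is a classical marker of proliferating cells. Its level was 102, 137 and 247 CPM (lowest, median, highest) in Ehmt2Cntr and 224, 433 and 824 CPM in Ehmt2Mat. Only the lowest Ehmt2Mat embryo fell within the control range, and the log2 fold change was 1.67 ± 0.23. Nip7, the partner that Nop2 recruits, changed by 0.72 ± 0.20. The next estimates belonged to Rrp1 (1.24 ± 0.29), Ebna1bp2 (1.16 ± 0.21), the rRNA ribose methyltransferase Ftsj3 (1.16 ± 0.20) and Nop16 (1.04 ± 0.21), all called higher. Ftsj3, chosen here after its values were seen, did not overlap between groups, with 96.3, 153 and 217 CPM in controls and 221, 325 and 626 CPM in Ehmt2Mat. The called members also included Wdr74 (0.88), Ppan (0.86), Rpf1 (0.82), Urb1 (0.77), Mak16 (0.73), Rrp15 (0.64) and Rbm28 (0.63).

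At the other end of this group was Noc2l (chr4:156236010-156247616, plus strand), the homologue of a yeast factor that accompanies pre-60S particles out of the nucleolus. It stood at 193, 374 and 469 CPM in controls and 197, 328 and 378 CPM in Ehmt2Mat, with 1 of 10 Ehmt2Mat embryos above the control median and a log2 fold change of -0.11 ± 0.18. Of its exon bases 20.9% are shared with Samd11, and counts over shared bases were given to both genes. Its relative Noc3l had an estimate of 0.37 ± 0.22. Urb1 and Urb2, homologues of yeast proteins that act in the same early particle, differed in sign (0.77 ± 0.24 and -0.30 ± 0.41), Urb2 being the least abundant member with a control median of 4.17 RPKM. Brix1 had an estimate of 0.15 ± 0.16.

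The 8 DEAD-box RNA helicases, ATP-driven enzymes that open or rearrange rRNA helices, all had positive estimates, and 3 were called higher. Ddx56 (chr11:6258919-6267772, minus strand) had 30.2, 88.9 and 141 CPM in controls and 109.8, 202 and 282 CPM in Ehmt2Mat, with 9 of 10 Ehmt2Mat embryos above all controls and a log2 fold change of 1.14 ± 0.23. Ddx27, the helicase that contacts the PeBoW complex, was also called (1.01 ± 0.18). It had 89.1, 115 and 152 CPM in controls and 155, 243 and 403 CPM in Ehmt2Mat. Ddx54 was called too (0.79 ± 0.21), but 15.5% of its exon bases are shared with overlapping genes. Together with Pes1 and Ftsj3, Ddx27 made up the 3 members in which every Ehmt2Mat embryo exceeded every control, an arrangement seen in 0.34% of all genes tested, and the opposite one, seen in 0.179% of genes, occurred in no member. Ddx18 (chr1:121553835-121567989, minus strand), the smallest estimate of the group, stood at 59.3, 97 and 125 CPM and 80.6, 117 and 154 CPM, with a log2 fold change of 0.36 ± 0.18. Of its 50-base windows 55.9% occur in transcripts of other genes, the highest share among the members, so part of its count could belong to those genes. The remaining helicases, Ddx24, Ddx31, Ddx55 and Ddx51, had estimates between 0.44 and 0.56.

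The GTPases time the steps of particle maturation, and 3 of 5 were called higher. Gnl2 (chr4:125016585-125055380, plus strand), the homologue of yeast Nog2, which holds its place on the particle until the export adaptor can bind, had 71.7, 143 and 203 CPM in controls and 194, 270.4 and 410.4 CPM in Ehmt2Mat. Of the Ehmt2Mat embryos 8 were above all controls, and the log2 fold change was 1.06 ± 0.21. Lsg1, the cytoplasmic GTPase that releases Nmd3 from the particle, and Gnl3, known as nucleostemin, were called with 0.65 ± 0.20 and 0.47 ± 0.14. Gtpbp4 (chr13:8972071-8996017, minus strand), the homologue of yeast Nog1, had 289, 379.7 and 676 CPM and 371, 489 and 747 CPM, with the groups overlapping widely and a log2 fold change of 0.28 ± 0.18, and the nucleostemin relative Gnl3l had 0.30 ± 0.24.

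None of the 9 AAA ATPases and factors of ITS2 removal or of the rixosome was called (edgeR), and DESeq2 called none either. Over all 11754 genes tested edgeR called 4.37% higher and 4.98% lower, so 9 genes could hold no call at that share. At an unadjusted p under 0.05 there were 2, of which Pelp1 was lower, and 23.3% of all genes had such a p. The median estimate of this group was 0.16, against 0.56 over all members, and 3 of the 9 were negative. Whether this group differs from the other members was not tested. The giant AAA ATPase Mdn1 (chr4:32657119-32775217, plus strand), which strips assembly factors from the nuclear particle, had 129.6, 318 and 528 CPM in controls and 211, 316 and 393 CPM in Ehmt2Mat. All Ehmt2Mat embryos thus lay within the control range, and the log2 fold change was 0.02 ± 0.20. Nol9 (chr4:152039321-152061494, plus strand), the kinase that acts on the RNA ends left by ITS2 cleavage, had 34.4, 169 and 327 CPM in controls and 189, 251 and 405 CPM in Ehmt2Mat, with a log2 fold change of 0.59 ± 0.29. Las1l, the endonuclease that makes that cut, had an estimate of 0.57 ± 0.22, close to Nol9. The rixosome scaffold proteins Pelp1, Wdr18 and Tex10 had estimates of -0.54 ± 0.23, 0.16 ± 0.18 and -0.15 ± 0.17, and their deSUMOylating enzyme Senp3 had 0.44 ± 0.30. Only 1 Ehmt2Mat embryo, number 5, was above the control median for Pelp1, and without it Pelp1 passed the threshold as the single lower call among the members. The AAA ATPase Nvl had -0.16 ± 0.15, and Nle1, the factor that Mdn1 pulls off the particle, 0.22 ± 0.26.

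Export and cytoplasmic maturation contributed 2 calls among 5 members. Nmd3 (chr3:69721985-69756373, plus strand), the adaptor that carries the particle to the export receptor, had 138, 206 and 345 CPM in controls and 208, 391 and 548 CPM in Ehmt2Mat. Of the Ehmt2Mat embryos 7 lay above all controls, and the log2 fold change was 0.83 ± 0.20. Eif6, which keeps the free 60S subunit from joining the 40S, was called with 0.58 ± 0.17. Mrto4, the placeholder for the stalk protein, had 0.52 ± 0.18 and was not called, and Zfp622, a late cytoplasmic factor, had -0.12 ± 0.22. Rsl24d1 (chr9:73113426-73123333, plus strand), which occupies the site of a ribosomal protein until the particle is in the cytoplasm, had 88.8, 195 and 248 CPM in controls and 76, 189 and 277 CPM in Ehmt2Mat, with a log2 fold change of 0.10 ± 0.22. It shares 13.2% of its exon bases with an overlapping entry.

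Npm1 and Ncl, the abundant nucleolar proteins nucleophosmin and nucleolin, act as chaperones of rRNA and ribosomal proteins and have many other partners. Npm1 (chr11:33152287-33163206, minus strand) had 774, 1476 and 2149.8 CPM in controls and 1172, 1761 and 2513 CPM in Ehmt2Mat, with a log2 fold change of 0.25 ± 0.18. Ncl (chr1:86344719-86359400, minus strand) had 463, 748 and 1109 CPM and 855, 1425 and 2232 CPM, with 7 of 10 Ehmt2Mat embryos above all controls and a log2 fold change of 0.87 ± 0.19. The pair thus differed in that only Ncl was called, although the difference between the 2 genes was not tested. Per exon length the median of Npm1 was 554 RPKM in controls and 661 RPKM in Ehmt2Mat, and that of Ncl 73.4 and 139.9 RPKM, so Npm1 was the more abundant of the pair in both groups. Of the 50-base windows of Npm1 24.3% occur in transcripts of other genes, and 3 snoRNA genes lie within Ncl.

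**Figure D2:**
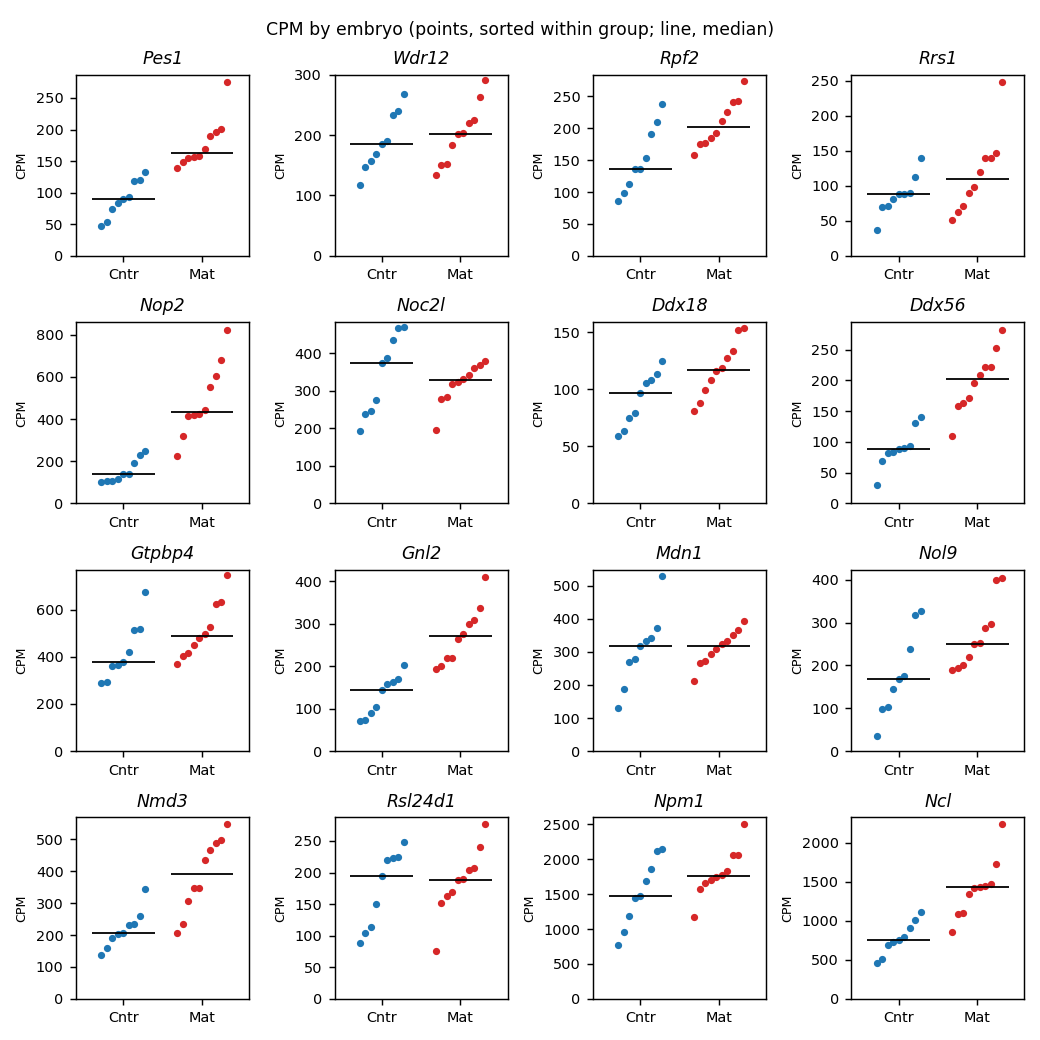
CPM (y axis, from 0) of the 16 members named by rule, by embryo, for Ehmt2Cntr (9 embryos, blue) and Ehmt2Mat (10 embryos, red), with a line at the median. The groups separate fully for Pes1 and overlap in 1 Ehmt2Mat embryo for Nop2, while those of Wdr12 and Rsl24d1 overlap over most of their range and the Ehmt2Mat values of Noc2l and Mdn1 lie within the wider control range.

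Taken as a sum, the 57 members made up 1.22% ± 0.14 (SD, n = 9) of the counts in Ehmt2Cntr and 1.76% ± 0.256 (SD, n = 10) in Ehmt2Mat, on scaled library sizes. The summed level was lowest at 10328, with a median of 12364 and a highest value of 14893 CPM in controls, and 14337, 17224 and 22262 CPM in Ehmt2Mat. Of the 10 Ehmt2Mat embryos 9 lay above all controls, and the groups overlapped only through control 5 and Ehmt2Mat 8. The ratio of the group means was 1.44. Counting genes rather than adding CPM gave no overlap: between 15 and 35 members lay above their control median in a control embryo and between 41 and 55 in an Ehmt2Mat embryo, with the controls spread around their own medians by construction. The same count was not made over all genes. Since the list was drawn up with this contrast in view, the sum and the count only describe the members. In bulk counts from 1 embryo, fewer cells and less RNA per cell cannot be told apart, and CPM gives a share of the RNA and not an amount. Ehmt2Mat 3, the embryo with the highest sum, had the smallest library, and the part of depth in its value was not tested. Without it the log2 ratio of the means was 0.48, against 0.53 with all embryos.

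**Figure D3:**
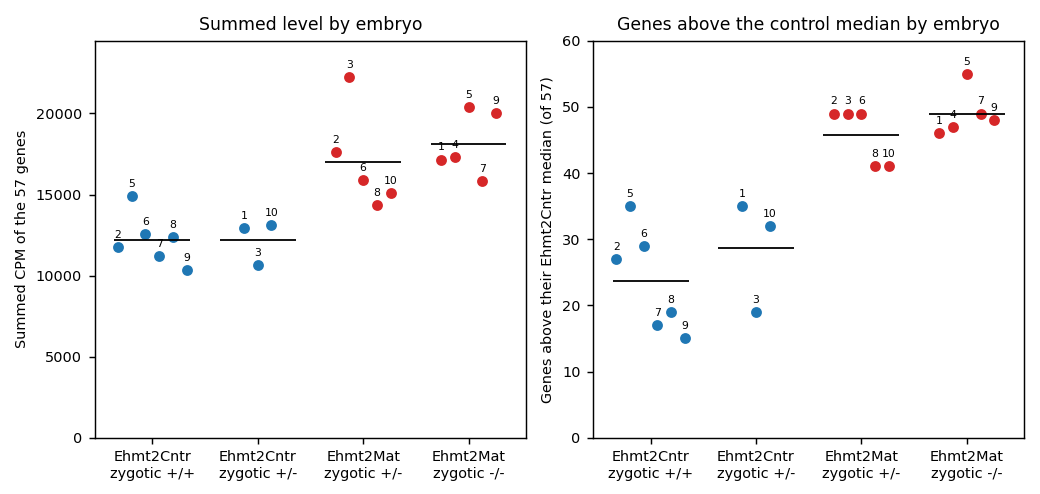
Left, summed CPM of the 57 members in each embryo (y axis, from 0) by maternal group and zygotic genotype. Right, the number of members above their Ehmt2Cntr median in each embryo. Numbers are embryo numbers and lines are means. Within each maternal group the embryos of both zygotic genotypes cover overlapping ranges, and every Ehmt2Mat embryo has at least 41 members above the control median.

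The zygotic genotype was a contrast that the choice of members did not use, and so it could be tested. The question was whether the embryo's own copy of Ehmt2 made a difference once the maternal supply had been removed. The summed level was 15819, 17161, 17287, 20054 and 20418 CPM in the 5 Ehmt2M/Z embryos. In the 5 Ehmt2M/+ embryos it was 14337, 15073, 15872, 17599 and 22262 CPM, so the 2 sets overlapped, with a ratio of means of 1.07. No member was called between them (edgeR, smallest adjusted p = 0.9997 among the members), none had an unadjusted p under 0.05, where 2.21% of the 12195 genes tested did, and DESeq2 called no member and 3 genes in all. The median log2 fold change of the members, Ehmt2M/Z over Ehmt2M/+, was 0.11, against -0.03 over all genes. Of the 57 members 42 were positive, against 5469 of 11567 genes. That count was 37 to 42 with other scalings, other filters or DESeq2. It ran from 35 to 50 when an embryo was left out, and it was not tested. The single values ran from -0.52 to 0.54. Nop2 had 0.45 ± 0.29, with a 95% interval from -0.17 to 1.07. Pes1 had -0.08 ± 0.23, from -0.57 to 0.41. For 49 of 57 members the interval lay between -1 and 1, so a change of 2-fold or more between these sets lay outside it, whereas smaller changes were not resolved by 5 embryos a side. These intervals were taken gene by gene, with no adjustment for their number.

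The same comparison in embryos with a maternal supply set 3 controls of zygotic +/- against 6 of +/+. No member was called (edgeR, smallest adjusted p = 0.9998 among the members), and DESeq2 called no member and 3 genes in all. At an unadjusted p under 0.05 there were 4 members by either tool, where 4.52% of the 12646 genes tested had such a p by edgeR. By edgeR these were the helicases Ddx55 (-1.01 ± 0.35) and Ddx54 (0.64 ± 0.26), Rrp15 (0.63 ± 0.26) and Urb2 (-1.54 ± 0.65), in opposite directions. The median over the members was 0.03, with 32 of 57 positive, against -0.03 over all genes. With 3 embryos on 1 side the intervals were wide, and they lay between -1 and 1 for 30 of 57 members.

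Restricting the maternal contrast to zygotic +/- embryos, 5 of Ehmt2Mat and 3 of Ehmt2Cntr, gave a description with equal zygotic genotype. The median log2 fold change of the members was 0.45 and 48 of 57 were positive, but no member was called by edgeR or DESeq2. At an unadjusted p under 0.05 there were 13 members higher and 1 lower by edgeR, where 6.76% of the 13401 genes tested had such a p in either direction. By edgeR 1 gene was called among all those tested (0.00746%, lower), and by DESeq2 79 genes. Nop2 had 1.09 ± 0.37 in this subset, Ftsj3 1.31 ± 0.39, Ddx56 1.03 ± 0.33, Nmd3 1.05 ± 0.30, Ncl 0.87 ± 0.35 and Pes1 0.74 ± 0.34. Members called in all 19 embryos but with estimates near 0 here were Rrp15 (0.12 ± 0.25), Rbm28 (0.17 ± 0.30) and Ddx54 (0.17 ± 0.35). Pelp1 again had the lowest estimate (-0.77 ± 0.35). These embryos are part of the main contrast, and the 2 sets of values are not independent.

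**Figure D4:**
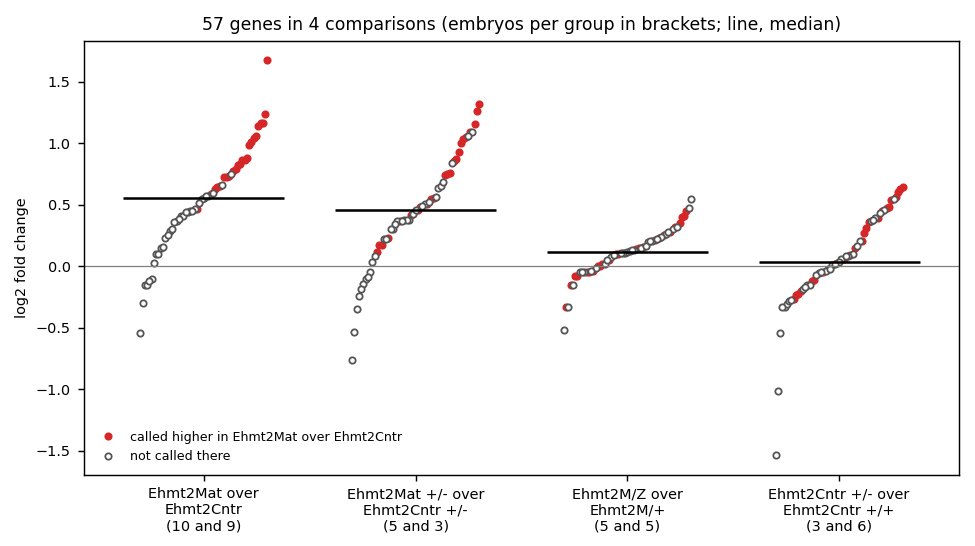
The log2 fold change (y axis) of the 57 members in 4 comparisons, sorted within each, with red points for members called higher in Ehmt2Mat over Ehmt2Cntr and a line at the median. The medians are 0.56 and 0.45 for the maternal contrast in all embryos and in zygotic +/- embryos, and 0.11 and 0.03 for the zygotic genotype in Ehmt2Mat and in controls.

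The members were next set beside other parts of the ribosome pathway, with lists drawn up by function while earlier results of these data were known. Counts for these lists are therefore a description. Over all 11754 genes tested, 4.37% were called higher and 4.98% lower, with a median log2 fold change of -0.04. Every Ehmt2Mat embryo was above every control in 0.34% of them. Of 29 other factors of 60S assembly, export and ITS2 removal, 9 were called higher and 2 lower, with a median log2 fold change of 0.33. Among the called genes the largest rise was that of Sbds (1.20 ± 0.24, edgeR adjusted p = 0.00282), which removes Eif6 from the mature subunit, and the largest fall that of Eri1 (-1.03 ± 0.24, adjusted p = 0.00852), an exonuclease that trims the 5.8S rRNA. Of 51 factors of the small subunit processome and 40S assembly 18 were called higher and 3 lower, with a median of 0.55, and 5 had every Ehmt2Mat embryo above every control. The largest rise and fall among them were those of Rrp7a (1.59) and Nol7 (-1.65). Of 47 proteins of the 60S subunit itself 7 were called higher and 1 lower, with a median of 0.24 and with Rpl7a (1.30) as the largest rise and Rpl13 (-0.84) as the called fall. Ribosomal protein genes have many processed pseudogenes, which makes their counts less certain than those of the assembly factors. Control means in this list ran from 4.80 CPM (Rpl38) to 2552 CPM (Rpl4), so its median of 0.24 mixes genes at very unlike levels. The lists overlap in no gene, and whether their medians differ was not tested.

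The maternal calls of the members depended on single embryos and on the tool as follows, which describes the calls and, since the same embryos were in view when the list was made, lends them no support. When each of the 19 embryos was left out in turn, 18 of the 24 members were called higher in every fit. Among them were Nop2, Pes1, Ftsj3, Ebna1bp2, Nop16, Rrp1, Ddx27, Ddx56, Gnl2, Nmd3 and Ncl. How many of all the genes called higher kept their call in every fit was not counted. Eif6 kept its call in 17 of 19 fits and Rbm28 in 14, whereas Urb1 kept it in 8, Bop1 and Gnl3 in 6 each and Lsg1 in 5. All 24 were also called by DESeq2, which added Surf6, Mrto4, Ddx24, Ddx31 and Nsa2. Some members share bases with other genes, and counting gave a read to each gene it touched. Setting aside the 12 members with over 5% of their exon bases in another gene or over 10% of their 50-base windows in other transcripts left 45. Of these 20 (44.4%) were called higher, and the median log2 fold change of the 45 was 0.57. The called members set aside were Pes1, Mak16, Ddx54 and Eif6. Within groups the members varied by a median CV of 31.2% over control embryos and 27.0% over Ehmt2Mat embryos.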

How the data were processed

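Single 8-cell embryos were lysed after removal of the zona, and cDNA amplification favoured the 3′ part of each transcript before 50 bp single-end sequencing. The deposited tables hold raw counts per gene, which the authors made with featureCounts 1.5.0 on GRCm38 with Ensembl release 82, as the file headers state. The settings in those headers counted exons by gene without strand, required an overlap of 10 bases and gave reads that touch several genes, or align several times, to each of them, so overlapping genes and close copies share counts. The submitters' processing notes also name TopHat2 and DESeq2.

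From these counts, edgeR 4.0.16 (TMM, filterByExpr, quasi-likelihood test, Benjamini-Hochberg over all genes tested, threshold 0.05) was fitted on 19 embryos, and separately within Ehmt2Mat embryos, within controls and within zygotic +/- embryos. DESeq2 1.42.0, other scalings and filters, and fits with each embryo left out served as alternatives. RPKM used the exon length of each gene, and with 3′-biased cDNA it is only a rough level. Intervals are at 95% from the edgeR SE and its degrees of freedom. The scripts were tested on simulated data. Symbols were found for 34599 of 34937 gene IDs, and all 57 members matched. Members, roles and comparison lists were chosen with earlier results of these data known. Genes were named by rule: in each role the members with the largest and smallest absolute log2 fold change, both members of a pair, any member called lower, and from other lists the largest called rise and fall. Any gene named beyond this rule was chosen after its values were seen. Shared exon bases were computed from the exon coordinates deposited with the counts. The 50-base windows and the snoRNA genes were taken from the GENCODE M21 annotation of GRCm38.

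No label says that embryo numbers pair the samples, and they were not used as pairs in the main fit. The deviations of 9 same-numbered pairs from their group means correlated at -0.11 to 0.12, with a mean of 0.029, against -0.0033 for unlike numbers.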

Additional observations from a re-analysis of the deposited data

Results flagged for a closer look

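Of 34 sets of values examined (the summed level and the 16 members named by rule, in each group of embryos), 2 held an embryo that stood apart from the rest of its group by a wide gap (0.543 and 0.514 of the group's range), and by its construction at Dixon's 95% critical value this rule flags about 1 set in 20 by chance. Pes1 stood at 276 CPM in Ehmt2Mat embryo 3, where the next Ehmt2Mat embryo had 201 CPM, and without embryo 3 its log2 fold change went from 0.99 to 0.90. Rrs1 stood at 248 CPM in Ehmt2Mat embryo 9, where the next had 147 CPM, and without embryo 9 its log2 fold change went from 0.44 to 0.25.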

How the results depend on the processing

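With RLE or upper-quartile scaling, no filter on low counts, or at least 10 counts in every embryo, 23 to 26 members were called higher and 0 lower, and the median log2 fold change of the members stayed between 0.55 and 0.58. In these fits 3.11 to 8.95% of the genes tested were called higher. DESeq2 moved the genes called from 1099 to 1775 and the members called higher to 29. Restricting to zygotic +/- embryos (5 and 3) left 1 gene and 0 members called, with the median at 0.45. That fit has fewer embryos, and whether the zygotic genotype bears on the loss was not tested. In it Mdn1 turned to -0.086. With each embryo left out in turn, 884 to 1262 genes were called in all, with 18 to 26 members higher and 0 to 1 lower (Pelp1, without Ehmt2Mat 5), and the median ran from 0.51 to 0.58. Mdn1, near 0 throughout, ran from -0.08 to 0.16 and turned negative without control 2 (-0.077), control 9 (-0.041), Ehmt2Mat 5 (-0.0028) and Ehmt2Mat 6 (-0.017). The log2 ratio of the summed level ran from 0.48 to 0.57, and was alike without Npm1 and Ncl and with raw totals. For Ehmt2M/Z against Ehmt2M/+ and for the controls DESeq2 called 3 genes each where edgeR called 0, and without control 10 the controls gave 1. No member was called in any of these fits. The median of the members ran from 0.049 to 0.18 in the former and from -0.060 to 0.11 in the latter when an embryo was left out. A fit with the embryo number as replicate block (9 pairs), which the data do not show to pair the embryos, called 693 genes and 18 members higher, all of them among the 24. Leaving out the members that share bases with other genes was an alternative chosen after seeing the data, and left 20 calls among 45 members.

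The depth, from 8231646 counts upward, put 84 counts or more behind every member in every embryo. Reads of amplified cDNA are not independent molecules, so these counts do not show how many molecules were sampled from an embryo.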
